A study of Mus musculus with 4 samples.

Results

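The C/EBP proteins and the myeloid lineage factors PU.1, KLF2, KLF4, PPARγ and GFI1 are transcription factors that steer blood progenitors towards granulocytes, monocytes and macrophages. They were followed as 9 genes, Cebpa, Cebpb, Cebpd, Cebpe, Spi1, Klf2, Klf4, Pparg and Gfi1, out of 23584 genes tested. The genes, and the lists used below, were chosen with earlier results of these data known. Counts set beside the share of all genes are therefore a description and not a test. Each probe whose accession belongs to one of these symbols was taken, in both channels of all 4 arrays. That gave 9 probes, 1 for each gene. All 9 probes passed the filter on dim probes and were well above background in all 8 channels, so each factor had a measured level in every group.

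The RNA came from primary mouse macrophages that were derived from bone marrow over 7 days of culture in 25 ng/ml GM-CSF, a growth factor of granulocytes and macrophages. There were 4 groups of 2 samples each: Cdk5r1 knockout cells with LPS, wildtype cells with LPS, basal knockout cells and basal wildtype cells. LPS, a cell wall component of bacteria that activates macrophages, was given at 100 ng/ml for 6 h. The labels state this treatment for all 4 arrays, so the basal and LPS groups were taken from the sample titles. The donors were male mice, 6 weeks old, and the labels give the strain B6.129S4-Cdk5r1tm1Lht/J for the knockout and the wildtype samples alike. The knockout is a germline allele rather than 1 restricted to macrophages, and Cdk5r1 codes for p35, which switches on the kinase CDK5. Each array held knockout RNA in the Cy5 channel and wildtype RNA in the Cy3 channel, and the dyes were not swapped. A dye effect of a probe and the genotype therefore cannot be told apart in a ratio of knockout over wildtype, while a constant dye effect cancels in LPS against basal within a channel. The labels call the samples biological replicates and name no animals, so p-values measure the spread between these samples.

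C/EBP proteins are leucine zipper factors that bind DNA as dimers. C/EBPα, encoded by Cebpa, sets up the granulocyte and monocyte lineage from progenitors and restrains their division. C/EBPβ and C/EBPδ, from Cebpb and Cebpd, take part in inflammatory gene induction in macrophages, and C/EBPε, from Cebpe, drives the late steps of granulocyte maturation and the genes of secondary granules. PU.1, from Spi1, is the ETS family factor on which macrophage identity rests. KLF2 and KLF4 are zinc finger factors known for restraining inflammatory activation and for monocyte differentiation. PPARγ, from Pparg, is a nuclear receptor for lipid ligands that GM-CSF raises in alveolar macrophages, and GFI1 is a zinc finger repressor that favours the granulocyte over the monocyte fate.

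The promoter sequences of the factors that moved most under LPS, and of Klf2, which differed between the genotypes, are shown so that these genes can be compared base by base. RefSeq promoters (GRCm38.p6) were listed for 6 of the 9 genes, Cebpa, Cebpb, Klf2, Klf4, Pparg and Gfi1. Each window below holds the 250 bases before a transcription start, on the strand of the gene, at chr7:35119043-35119292 (plus strand) for Cebpa, chr6:115421816-115422065 (plus strand) for the last of 3 Pparg starts, chr5:107725806-107726055 (minus strand) for the first of 2 Gfi1 starts and chr8:72318812-72319061 (plus strand) for Klf2. Capitals mark matches to the C/EBP letters TTNNGNAA on either strand. For Pparg and Gfi1 the start shown is the one with such a match. Which start the cells used was not tested.
Cebpa: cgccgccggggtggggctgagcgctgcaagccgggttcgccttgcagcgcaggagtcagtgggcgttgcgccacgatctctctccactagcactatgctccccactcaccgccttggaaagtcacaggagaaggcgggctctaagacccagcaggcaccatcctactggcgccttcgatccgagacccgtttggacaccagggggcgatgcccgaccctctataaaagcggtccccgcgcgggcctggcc
Pparg: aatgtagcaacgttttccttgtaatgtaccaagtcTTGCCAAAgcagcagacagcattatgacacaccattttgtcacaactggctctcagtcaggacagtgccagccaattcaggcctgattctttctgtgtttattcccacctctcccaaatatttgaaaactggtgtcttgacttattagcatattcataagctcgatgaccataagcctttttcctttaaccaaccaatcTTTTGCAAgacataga
Gfi1: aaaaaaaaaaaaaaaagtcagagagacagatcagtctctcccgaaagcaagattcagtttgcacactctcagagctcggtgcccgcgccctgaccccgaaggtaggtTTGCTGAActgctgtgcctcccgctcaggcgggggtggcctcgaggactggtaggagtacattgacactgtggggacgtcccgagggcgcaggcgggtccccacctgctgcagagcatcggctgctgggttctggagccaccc
Klf2: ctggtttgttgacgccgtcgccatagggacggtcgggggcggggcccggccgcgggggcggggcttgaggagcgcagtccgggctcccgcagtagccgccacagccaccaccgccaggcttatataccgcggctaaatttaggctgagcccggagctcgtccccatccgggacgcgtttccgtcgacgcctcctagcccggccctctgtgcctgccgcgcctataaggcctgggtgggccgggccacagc

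Such a C/EBP match stood in 36.8% of the 32851 mouse promoter windows of the same length. The Gfi1 window held 1, 143 bases before the start, and the Pparg window held 2, at 215 and 16 bases before the start, each distance counted from the first base of the match. No match to these letters was found at the other 2 Pparg starts or the other Gfi1 start, nor in the windows of Cebpa, Klf2, Cebpb and Klf4. The Cebpa window held the TATA box letters TATAAA 30 bases before the start, as did 12.4% of all windows anywhere in their length. In the Klf2 window, the letters of a MEF2 site (found in 3.2% of all windows) stood 118 bases before the start, and GGGCGG (a GC box, in 32.7% of all windows) stood at 214 and 195 bases. Overlaps between the matches of different motifs were not removed. The letters of a kappaB site, found in 1.0% of all windows, were absent from all 9 windows of the members. G and C made up 40.8% of the Pparg window shown and 82.4% and 63.6% of the windows at its other starts, against 59.2% and 57.6% at the Gfi1 starts, 66.4% for Cebpa and 71.2% for Klf2 and a median of 52.4% over all windows, so the starts of Pparg alone span the range of the others.

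The first question was how the factors respond to LPS. Levels are log2 values after background correction and normalization, and each change is LPS minus basal within 1 genotype, tested with limma and adjusted over all 23584 genes at a threshold of 0.05. In knockout cells 8 of 9 factors passed, 4 higher and 4 lower with LPS, where 41.8% of all genes passed, 19.1% higher and 22.7% lower. In wildtype cells the same split was found, 8 of 9 with 4 higher and 4 lower, where 41.7% of all genes passed, 18.3% higher and 23.4% lower. The 4 that rose in each genotype were Gfi1, Cebpe, Spi1 and Cebpd, and the 4 that fell in each were Cebpa, Pparg, Klf4 and Klf2. The median change over the 9 factors was -0.12 in knockout and 0.10 in wildtype cells, against -0.013 and -0.005 over all genes.

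**Figure D1:**
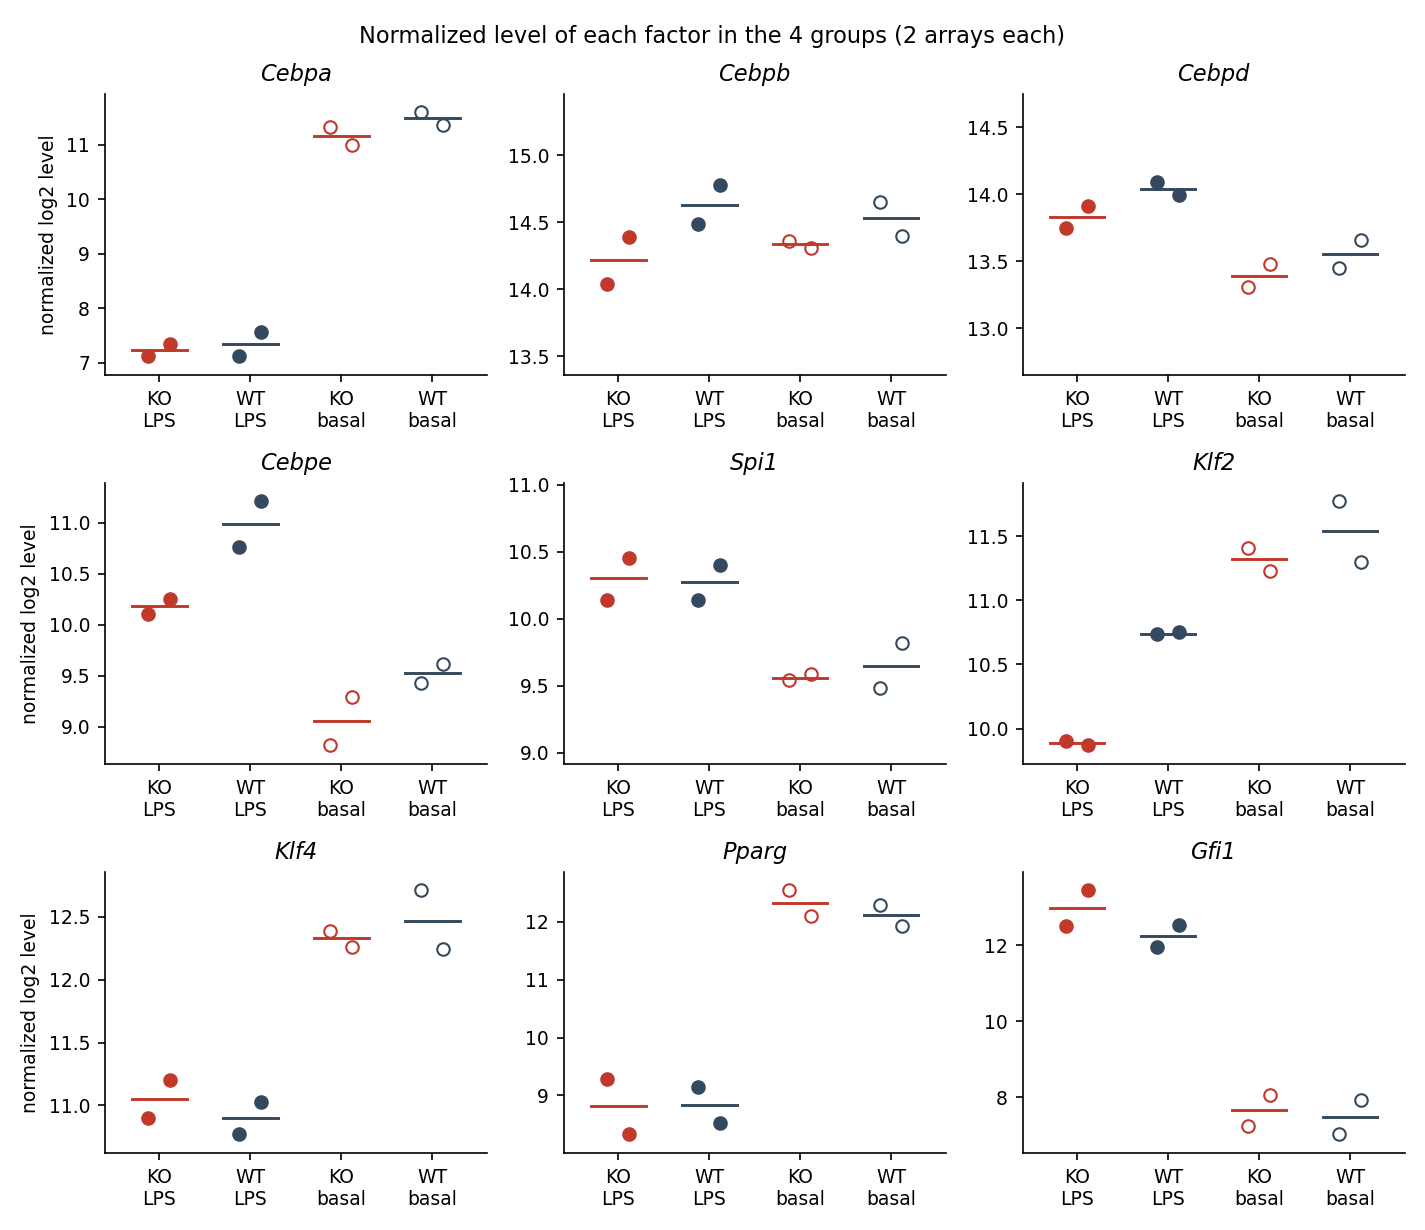
Normalized log2 level of each factor, 1 panel per gene with its own axis; points are the 2 arrays of a group, lines their mean, filled points LPS and open points basal, red knockout (KO) and dark blue wildtype (WT). Cebpa and Pparg lie far lower and Gfi1 far higher in the LPS groups of both genotypes, and Klf2 splits the genotypes under LPS, at 9.90 and 9.87 in knockout against 10.74 and 10.75 in wildtype cells.

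Cebpa showed the largest fall of the 9. Its level was 7.13 and 7.34 in LPS knockout cells and 7.12 and 7.57 in LPS wildtype cells, against 11.32 and 11 in basal knockout cells and 11.59 and 11.36 in basal wildtype cells. The LPS and basal groups do not overlap and lie more than 3 log2 units apart, while the genotypes lie close together within each. In the scanner values before normalization, the Cebpa spot had median intensities of 116 and 143 in LPS knockout cells against 3496.5 and 2980 in basal knockout cells, over local backgrounds of 40 to 49.5. In normalized levels, Cebpa was 15.2-fold lower with LPS in knockout cells (log2 change -3.93 ± 0.16 SE, n = 2 against 2, limma adjusted p = 0.000641). In wildtype cells it was 17.5-fold lower (-4.13 ± 0.188, limma adjusted p = 0.00055). This was the 24th largest fall of all genes in knockout and the 11th largest in wildtype cells. With the scanner's processed signals the changes were larger in size, at -4.87 in knockout and -4.88 in wildtype cells. In bulk RNA such as this, fewer cells of a type and less RNA per cell cannot be told apart.

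Cebpb, by contrast, had no call in either genotype. It stood at 14.04 and 14.39 in LPS knockout and 14.49 and 14.78 in LPS wildtype cells, against 14.36 and 14.31 in basal knockout and 14.65 and 14.40 in basal wildtype cells, and the LPS and basal groups overlap in each genotype. The change was -0.12 ± 0.15 in knockout (limma adjusted p = 0.56) and 0.10 ± 0.154 in wildtype cells (limma adjusted p = 0.635). With levels scaled to the 75th percentile of each channel, Cebpb was called higher in both, at 0.50 and 0.74 (adjusted p = 0.0448 and 0.0111), but that scaling put the median of all genes at 0.36 and 0.38. Relative to that median, Cebpb was at 0.14 in knockout and 0.36 in wildtype cells, and the other 8 factors kept their direction.

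Cebpd rose in both genotypes by a small amount. The level was 13.75 and 13.91 in LPS knockout cells against 13.31 and 13.48 in basal knockout cells, and 14.09 and 13.99 in LPS wildtype cells against 13.45 and 13.66 in basal wildtype cells. LPS and basal groups do not overlap within either genotype. The change was 0.43 ± 0.122 in knockout cells (limma adjusted p = 0.047) and 0.49 ± 0.116 in wildtype cells (limma adjusted p = 0.0279). These calls lie near the threshold: leaving out any 1 array ended the wildtype call, and leaving out either basal array or the second LPS array ended the knockout call (adjusted p up to 0.139 and 0.218). With the scanner's processed signals the adjusted p was 0.0687 in knockout and 0.0587 in wildtype cells.

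Cebpe rose more. Levels of 10.11 and 10.25 in LPS knockout cells stood against 8.82 and 9.29 in basal knockout cells, and 10.76 and 11.21 in LPS wildtype cells against 9.43 and 9.62 in basal wildtype cells. The 4 groups form steps with no overlap, in the order LPS wildtype, LPS knockout, basal wildtype and basal knockout from high to low. Cebpe was 2.17-fold higher with LPS in knockout cells (1.12 ± 0.19, limma adjusted p = 0.0122). In wildtype cells it was 2.75-fold higher (1.46 ± 0.181, limma adjusted p = 0.00449). Neutrophil markers moved the same way: of the 8 measured, 4 rose and 0 fell with LPS in knockout cells, and 6 rose and 1 fell in wildtype cells. The signals of these markers were also summed, a sum in which the brightest weigh most. The log2 of this sum was 16.55 and 16.49 in LPS knockout against 15.57 and 16.27 in basal knockout cells. In wildtype cells it was 18.04 and 18.17 with LPS against 16.70 and 17.37 at rest. The part of these markers in the Cebpe result was not tested.

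Spi1 rose in both genotypes as well. It was at 10.14 and 10.45 in LPS knockout cells against 9.54 and 9.59 in basal knockout cells, and at 10.14 and 10.40 in LPS wildtype cells against 9.48 and 9.82 in basal wildtype cells. The LPS values exceed the basal ones in each genotype, with the genotypes interleaved within each condition. The change was 0.73 ± 0.14 in knockout cells (limma adjusted p = 0.0166) and 0.62 ± 0.167 in wildtype cells (limma adjusted p = 0.04). Leaving out either basal array ended the knockout call (adjusted p = 0.0944 and 0.0925), and the wildtype call ended without either basal array or the second LPS array, with no filter on dim probes and with processed signals (adjusted p from 0.0506 to 0.162).

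Both Krüppel-like factors fell. Klf2 was at 9.90 and 9.87 in LPS knockout cells against 11.41 and 11.23 in basal knockout cells, and at 10.74 and 10.75 in LPS wildtype cells against 11.77 and 11.30 in basal wildtype cells. The LPS knockout values are the lowest and the 2 basal groups overlap. Its change was -1.44 ± 0.112 in knockout cells (2.71-fold lower, limma adjusted p = 0.00195) and -0.79 ± 0.18 in wildtype cells (1.73-fold lower, limma adjusted p = 0.0246). The wildtype call ended without the first basal array or either LPS array (adjusted p from 0.0628 to 0.076). Klf4 was at 10.90 and 11.20 in LPS knockout cells against 12.39 and 12.26 in basal knockout cells, and at 10.77 and 11.03 in LPS wildtype cells against 12.71 and 12.24 in basal wildtype cells. The genotypes overlap within each condition, and the LPS and basal groups do not overlap. Klf4 fell by 1.28 ± 0.145 in knockout cells (limma adjusted p = 0.00445) and by 1.57 ± 0.198 in wildtype cells (limma adjusted p = 0.0047).

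Pparg had the second largest fall of the 9. The probe was at 9.29 and 8.33 in LPS knockout cells against 12.54 and 12.09 in basal knockout cells, and at 9.14 and 8.53 in LPS wildtype cells against 12.29 and 11.92 in basal wildtype cells. Within the LPS pair the first array was the higher in both genotypes, and this spread is small beside the gap to the basal arrays. Pparg was 11.4-fold lower with LPS in knockout cells (-3.51 ± 0.364, limma adjusted p = 0.00362) and 9.67-fold lower in wildtype cells (-3.27 ± 0.247, limma adjusted p = 0.00137). It ranked 55th and 61st among the falls.

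Gfi1 had the largest rise of the 9. It was at 12.52 and 13.45 in LPS knockout cells against 7.26 and 8.06 in basal knockout cells, and at 11.95 and 12.53 in LPS wildtype cells against 7.03 and 7.92 in basal wildtype cells. The second array was the higher of each pair, in each genotype and condition. Median intensities of the spot were 6609 and 12513.5 in LPS knockout cells against 171.5 and 360 in basal knockout cells, and 2812.5 and 4587.5 in LPS wildtype cells against 99.5 and 223.5 in basal wildtype cells. Gfi1 was 40.1-fold higher with LPS in knockout cells (5.32 ± 0.42, limma adjusted p = 0.00199) and 27.2-fold higher in wildtype cells (4.76 ± 0.357, limma adjusted p = 0.00135). These were the 65th and 76th largest rises among all genes.

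**Figure D2:**
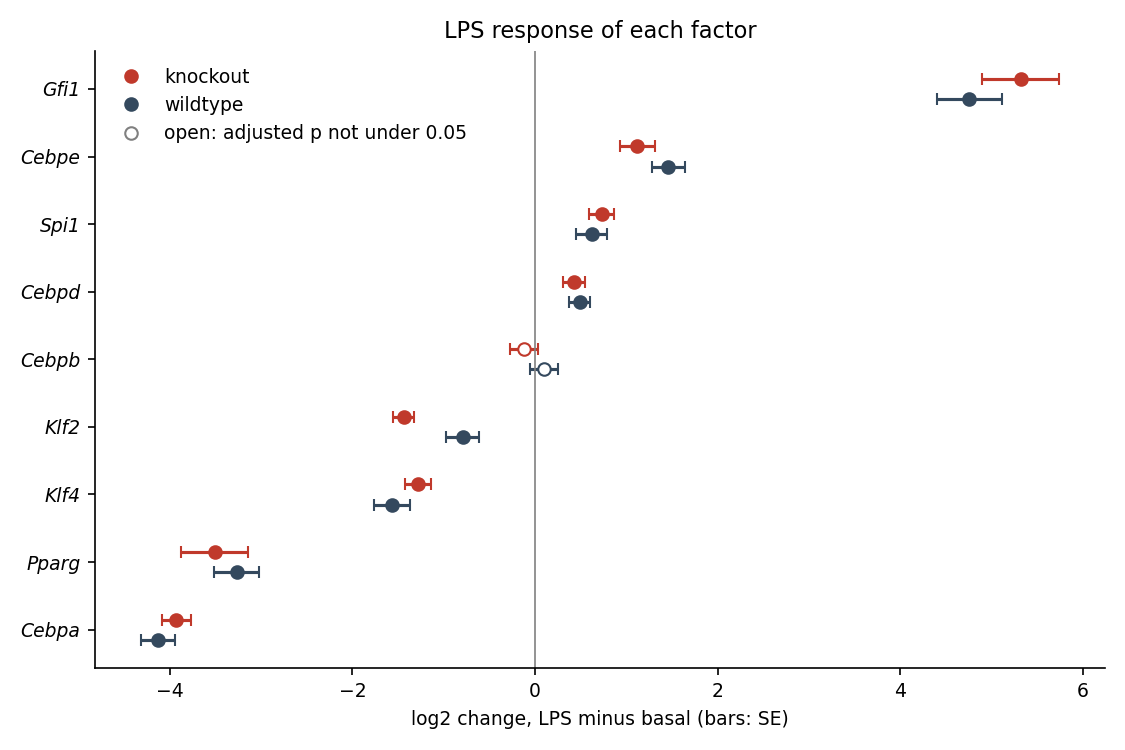
Log2 change of each factor with LPS (LPS minus basal), knockout above wildtype in each row, with bars of 1 SE and n = 2 arrays per condition; open points did not pass. Gfi1 stands at 5.32 and 4.76, Cebpa at -3.93 and -4.13 and Pparg at -3.51 and -3.27 in knockout and wildtype cells, and Cebpb lies on either side of 0.

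Changes of Cebpa, Cebpe, Klf4, Pparg and Gfi1 passed in both genotypes under each of the 12 alternative settings run for this comparison. Cebpa ranged from -4.87 to -3.75 over these settings in knockout cells and Gfi1 from 4.86 to 6.03.

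Genes known to act with these factors were counted from lists, beside the 41.8% and 41.7% of all genes that passed in knockout and wildtype cells. Of the other C/EBP family genes, Cebpz, a CCAAT-binding relative outside the leucine zipper family, fell by 1.75 ± 0.115 with LPS in knockout and by 1.45 ± 0.139 in wildtype cells. Cebpg and Ddit3 did not pass, at 0.00 and 0.03 in knockout cells and -0.23 and 0.29 in wildtype cells. Among 36 other myeloid lineage factors, 11 rose and 12 fell in knockout cells and 13 rose and 12 fell in wildtype cells, with medians of 0.24 and 0.37. Irf8, which directs monocyte and dendritic cell fate, rose by 3.38 ± 0.293 in knockout and 2.93 ± 0.18 in wildtype cells. Zbtb46, a factor of conventional dendritic cells, rose by 5.42 ± 0.178 and 5.38 ± 0.17, but its other probe gave 1.28 and 1.06. The retinoic acid receptor gene Rara changed by -3.76 ± 0.146 and -3.28 ± 0.161, with other Rara probe values of -2.72 and -2.24 (limma adjusted p = 0.00242 or lower for each of these). The signals of dendritic cell markers, Zbtb46 among them, were summed as well. The log2 of that sum was 17.72 and 17.83 in LPS knockout against 16.61 and 16.80 in basal knockout cells. In wildtype cells it was 17.76 and 17.63 with LPS against 16.74 and 16.93 at rest. The part of these markers in the changes of the listed factors was not tested. The sum hides opposite moves: 3 of the 5 markers rose and 2 fell in knockout cells, and 2 rose and 2 fell in wildtype cells, with Cd209a at -2.33 and -2.27 and Itgax at -1.06 and -0.63 as the falls.

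Inflammatory genes with known C/EBPβ or C/EBPδ sites rose almost throughout, 13 of 14 in each genotype, with median changes of 4.45 in knockout and 3.82 in wildtype cells. Il6 rose by 10.02 ± 0.127 and 10.31 ± 0.153. Cebpb had no call and Cebpd moved by less than 1 log2 unit, and a link of the listed genes to these factors was not tested. Ptgs2, the inducible cyclooxygenase, rose by 8.13 ± 0.0967 in knockout cells, and Il1b by 8.58 ± 0.227 in wildtype cells. Arg1 was the 1 member without a call, at 0.03 and -0.08, and was not well above background in knockout cells. Csf3 was not well above background in either basal group and was at least 2.07-fold higher with LPS in knockout cells and at least 3.02-fold higher in wildtype cells.

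Granule genes, whose products fill the storage granules of neutrophils, rose in both genotypes. Of 10 secondary granule genes controlled by C/EBPε, 6 rose and 1 fell in knockout cells and 7 rose and 0 fell in wildtype cells, with medians of 1.09 and 1.44. Lcn2, an iron-scavenging lipocalin, rose by 4.13 ± 0.363 and 4.20 ± 0.316, and haptoglobin (Hp) by 2.90 ± 0.542 and 3.0 ± 0.268. The collagenase gene Mmp8 fell by 0.80 ± 0.141 in knockout cells. Of 5 primary granule genes, 4 rose and 0 fell in each genotype, with Ctsg (cathepsin G) at 1.94 ± 0.172 and 1.78 ± 0.241. Without the second LPS or the second basal array, 2 of the 5 primary granule genes rose in wildtype cells. Lcn2 and Hp also stand in the inflammatory list, and 3 genes of the secondary and 2 of the primary list are neutrophil markers.

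Of 19 genes controlled by PU.1 in macrophages, 3 rose and 10 fell in knockout cells and 2 rose and 11 fell in wildtype cells. Their medians were -0.73 and -0.62. Spi1 itself rose, and a link of the listed genes to its change was not tested. The growth factor receptor gene Csf1r fell by 2.34 ± 0.316 in knockout cells by its brightest probe, with other probes at -1.75 and -1.07. Cd14, the LPS co-receptor gene, rose by 2.09 ± 0.239 in knockout and 2.20 ± 0.159 in wildtype cells. Without either basal array, 6 genes of the list fell in knockout and 7 in wildtype cells. Macrophage markers make up 7 of the 20 genes listed for PU.1, among them Cd68, which was not matched to a probe. The log2 of the markers' summed signals was 16.89 and 16.49 in LPS knockout against 17.85 and 17.57 in basal knockout cells. In wildtype cells it was 16.92 and 16.79 with LPS against 17.59 and 17.58 at rest. Of the 7 markers tested, which include Mertk from outside the PU.1 list, 2 rose and 3 fell in each genotype. Cd14 and Mertk were the rises. The part of the markers in the PU.1 list's changes was not tested. Of 17 genes controlled by PPARγ, 3 rose and 7 fell in knockout and 3 rose and 8 fell in wildtype cells, with medians of -0.31 and -0.60. Among them Acaa2, a fatty acid oxidation enzyme gene, fell by 1.53 ± 0.3 and 1.43 ± 0.216, and Lpl, lipoprotein lipase, by 1.37 ± 0.168 in knockout cells. Olr1 and Marco, both scavenger receptor genes, rose, Olr1 by 2.17 ± 0.125 and 2.39 ± 0.119 and Marco by 2.24 ± 0.466 and 3.09 ± 0.287. Without the first or second basal array the count of PPARγ genes that fell in knockout cells was 1 and 2. Without the first basal array the wildtype count was 4, and it was 5 without either LPS array.

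The KLF list, known mostly from endothelium and T cells, held 10 genes, of which 2 rose and 2 fell in knockout cells and 3 rose and 2 fell in wildtype cells, close to the 41.8% and 41.7% of all genes that passed. The mannose receptor gene Mrc1 fell by 2.09 ± 0.318 and 1.95 ± 0.326. Thbd, thrombomodulin, which KLF2 raises in human endothelial cells, was not well above background in either LPS group, and was at least 2.62-fold lower with LPS in knockout cells and at least 2.94-fold lower in wildtype cells (limma adjusted p = 0.00163 and 0.00248).

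The second question was how the knockout and wildtype cells differ. As a check of the labels, the log2 ratio of Cdk5r1, knockout over wildtype, was -2.55 and -2.29 on the LPS arrays and -0.37 and -0.59 on the basal arrays. The other Cdk5r1 probe gave -2.00 and -2.03 on the LPS arrays and -0.47 and -0.51 on the basal arrays. Both probes ran well above background in knockout cells, and their position relative to the deletion was not tested. Macrophage markers were well above background in all 4 groups, 7 of the 7 on the array. In knockout cells 2 of the 7 were lower under LPS, Cd14 at -0.51 and Fcgr1 at -0.47, and 1 was lower at rest, Lyz2 at -0.46, with 0 higher in either condition. Neutrophil markers were lower in knockout cells under both conditions, 5 of 8 with 0 higher.

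Under LPS, 4 of 9 factors differed between the genotypes, 1 higher and 3 lower in knockout cells, where 12.4% of all genes passed, 7.16% higher and 5.22% lower. The factors were Gfi1, higher, and Klf2, Cebpe and Cebpb, lower. At rest 0 of 9 passed limma's test, where 4.86% of all genes did (3.37% higher and 1.49% lower), and 3 of 9 had an unadjusted p under 0.05, as had 4664 of the 23584 genes. The processed signals and the authors' deposited value table each gave 2 called factors under LPS, Klf2 and Gfi1, and 0 at rest.

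The Klf2 ratio, knockout over wildtype, was -0.84 and -0.88 on the LPS arrays and -0.36 and -0.06 on the basal arrays. The 2 LPS arrays gave nearly the same value, and both lie below the basal ones. Klf2 was 1.81-fold lower in knockout cells under LPS (-0.86 ± 0.0885, limma adjusted p = 0.00255), and at rest the ratio was -0.21 ± 0.0885 (limma adjusted p = 0.254). Without the first or the second LPS array the LPS call ended (adjusted p = 0.0571 and 0.0666).

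Cebpe ratios were -0.66 and -0.96 on the LPS arrays and -0.61 and -0.32 on the basal arrays, below 0 on all 4. Under LPS Cebpe was 1.75-fold lower in knockout cells (-0.81 ± 0.106, limma adjusted p = 0.00562), and at rest the ratio was -0.47 ± 0.106 (limma adjusted p = 0.0653). The LPS call ended without the second LPS array (adjusted p = 0.0944) and with processed signals (adjusted p = 0.0572). The neutrophil markers given above moved with it. The log2 of their summed signals under LPS was 16.55 and 16.49 in knockout against 18.04 and 18.17 in wildtype cells, and their part in this result was not tested. The eosinophil list, of another granulocyte, had 2 of 5 genes lower and 0 higher in knockout cells under each condition.

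Gfi1 ratios were 0.57 and 0.92 on the LPS arrays and 0.23 and 0.15 on the basal arrays, above 0 on all 4. Knockout cells had 1.68-fold more Gfi1 signal under LPS (0.75 ± 0.0967, limma adjusted p = 0.00549), and the ratio at rest was 0.19 ± 0.0967 (limma adjusted p = 0.347). The levels of the 2 LPS groups overlap, since the first knockout array, at 12.52, lies level with the second wildtype array, at 12.53, and the difference shows within each array. Leaving out the second LPS array gave 0.57 (adjusted p = 0.0713), and without it 0 of 9 factors were called.

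Cebpb ratios were -0.44 and -0.39 on the LPS arrays and -0.29 and -0.09 on the basal arrays. The LPS ratio of -0.42 ± 0.077 passed (limma adjusted p = 0.0197), with Cebpb 1.33-fold lower in knockout cells. The call ended with processed signals, with the authors' deposited table, without either LPS array, and with median centring in place of loess, which gave -0.02 (adjusted p = 0.901). That centring put the median ratio of all genes at 0.07 under LPS and 0.09 at rest.

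The other 5 factors were not called in either condition. Ratios of Cebpa averaged -0.11 ± 0.0819 under LPS and -0.32 ± 0.0819 at rest (limma adjusted p = 0.41 and 0.0972). Cebpd was at -0.22 ± 0.0842 and -0.16 ± 0.0842, with all 4 array values below 0, but above 0 with median centring in both conditions. Spi1 stood at 0.03 ± 0.0885 and -0.08 ± 0.0885, and Klf4 at 0.15 ± 0.0935 and -0.15 ± 0.0935. Pparg had 0.15 and -0.20 on the LPS arrays and 0.25 and 0.17 on the basal arrays. It was called higher in basal knockout cells with median centring alone, at 0.43 (adjusted p = 0.0322).

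**Figure D3:**
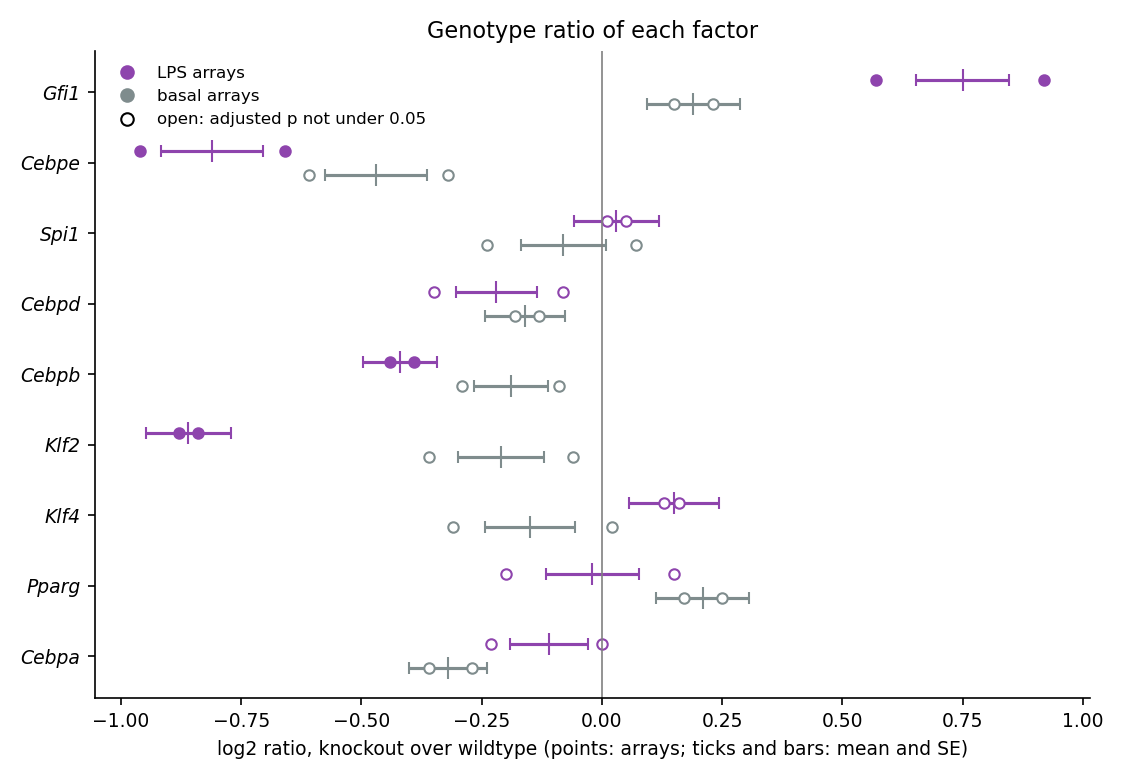
Log2 ratio of knockout over wildtype for each factor, with LPS arrays above basal arrays in each row; circles are arrays (n = 2 per condition, filled where the adjusted p passed), and ticks with bars give the mean and its SE. Klf2 and Cebpe lie furthest below 0 under LPS, at -0.86 and -0.81, and Gfi1 furthest above, at 0.75.

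Whether LPS and basal ratios differ was tested as the difference of the knockout effect, which equals the difference in LPS response between the genotypes. None of the 9 factors passed limma's test, where 0.382% of all genes did (0.267% higher and 0.114% lower), and 2 of 9 had an unadjusted p under 0.05, as had 2449 of the 23584 genes. These 2 were Klf2, at -0.65 ± 0.125 (limma adjusted p = 0.13), and Gfi1, at 0.56 ± 0.137 (limma adjusted p = 0.214). With median centring Gfi1 passed, at 0.74 (adjusted p = 0.0481). The genotype difference of Klf2 and Gfi1 under LPS is therefore not shown to differ from that at rest, although each basal ratio was smaller in size.

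Among the lists, secondary granule genes were lower in knockout cells, 9 of 10 under LPS and 6 of 10 at rest, with 0 higher, and medians of -0.92 and -0.63 against -0.001 and 0.002 over all genes. For this and the lists below, 12.4% of all genes passed under LPS and 4.86% at rest. Camp, the cathelicidin peptide gene, was at -1.52 ± 0.108 under LPS and -1.75 ± 0.108 at rest, and Ltf, lactoferrin, at -1.88 ± 0.109 and -1.35 ± 0.109 (limma adjusted p = 0.00136 or lower for each). Mmp9 was the 1 gene without a call under LPS, at -0.01, and was not well above background in knockout cells. Without the first or second LPS array 2 and 3 of the 10 passed under LPS, and with processed signals 3 of the 10 passed at rest. Of the 5 primary granule genes, 2 were lower and 0 higher in each condition, with Ms4a3 at -1.12 ± 0.0982 under LPS and -0.68 ± 0.0982 at rest, and 0 of the 5 passed under LPS without the first LPS array or at rest without the second basal array. The neutrophil sums given with Cebpe were lower in knockout cells as well. Camp, Ltf and Ngp of the secondary list and Mpo and Elane of the primary list are among those markers, so sums and lists are not independent. Mpo and Elane were not called in either condition. The part of the neutrophil markers in these list results was not tested.

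Inflammatory genes with C/EBPβ or C/EBPδ sites split under LPS, 2 higher and 8 lower of 14 in knockout cells, with 0 higher and 3 lower at rest and medians of -0.39 and -0.18. Il1b, the interleukin 1β gene, was at -0.75 ± 0.0714 under LPS, and Il10, which encodes an anti-inflammatory cytokine, at 1.91 ± 0.0658. The lower count was 0 without the first LPS array and 1 without the second, 3 with processed signals and 3 with median centring, while the higher count was 5 with median centring. At rest the lower count was 1 without the first basal array and 0 with processed signals. Other myeloid factors gave 5 higher and 7 lower of 36 under LPS and 1 higher and 0 lower at rest. Spic, a PU.1 relative of red pulp macrophages, was at 1.25 ± 0.221 under LPS, Irf8 at 0.57 ± 0.0964, Hhex, a homeobox factor, at -0.66 ± 0.0677 and Nr1h3, the oxysterol receptor LXRα, at -0.58 ± 0.098. These counts were 1 and 1 without the first LPS array and 0 and 0 without the second, and 0 and 2 with processed signals. With median centring they were 11 higher and 6 lower under LPS, and 7 higher at rest.

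Genes of PU.1 showed 4 lower and 0 higher of 19 under LPS and 1 lower at rest, with Btk, a signalling kinase, at -0.60 ± 0.128 by its brightest probe and -0.17 by another. Genes of PPARγ showed 1 higher and 5 lower of 17 under LPS and 0 higher and 2 lower at rest, with Marco at -1.09 ± 0.237 under LPS. Angptl4, a lipase inhibitor, was at 0.30 ± 0.0667 under LPS and -0.37 ± 0.0667 at rest, both past the threshold, while the difference between the conditions, 0.67, was not (limma adjusted p = 0.0562). The KLF list had 3 higher and 2 lower of 10 under LPS and 2 higher and 1 lower at rest, with Cdkn1c, a cell cycle inhibitor, at 1.09 ± 0.0817 under LPS and 0.51 ± 0.0817 at rest. Without either LPS array, the LPS counts were 1 lower for PU.1 genes, 0 for PPARγ genes, and 1 higher and 0 lower for the KLF list, and with processed signals they were 0, 0, and 1 higher and 0 lower. At rest these counts were 0 or 1 with an array left out, save 4 lower PPARγ genes without the second basal array. Median centring turned the balance of the PPARγ genes under LPS to 4 higher and 2 lower, left 0 lower at rest, and gave 2 lower PU.1 genes under LPS and 0 at rest. Cebpz was at -0.40 ± 0.0925 under LPS and was not called without either LPS array.

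**Figure D4:**
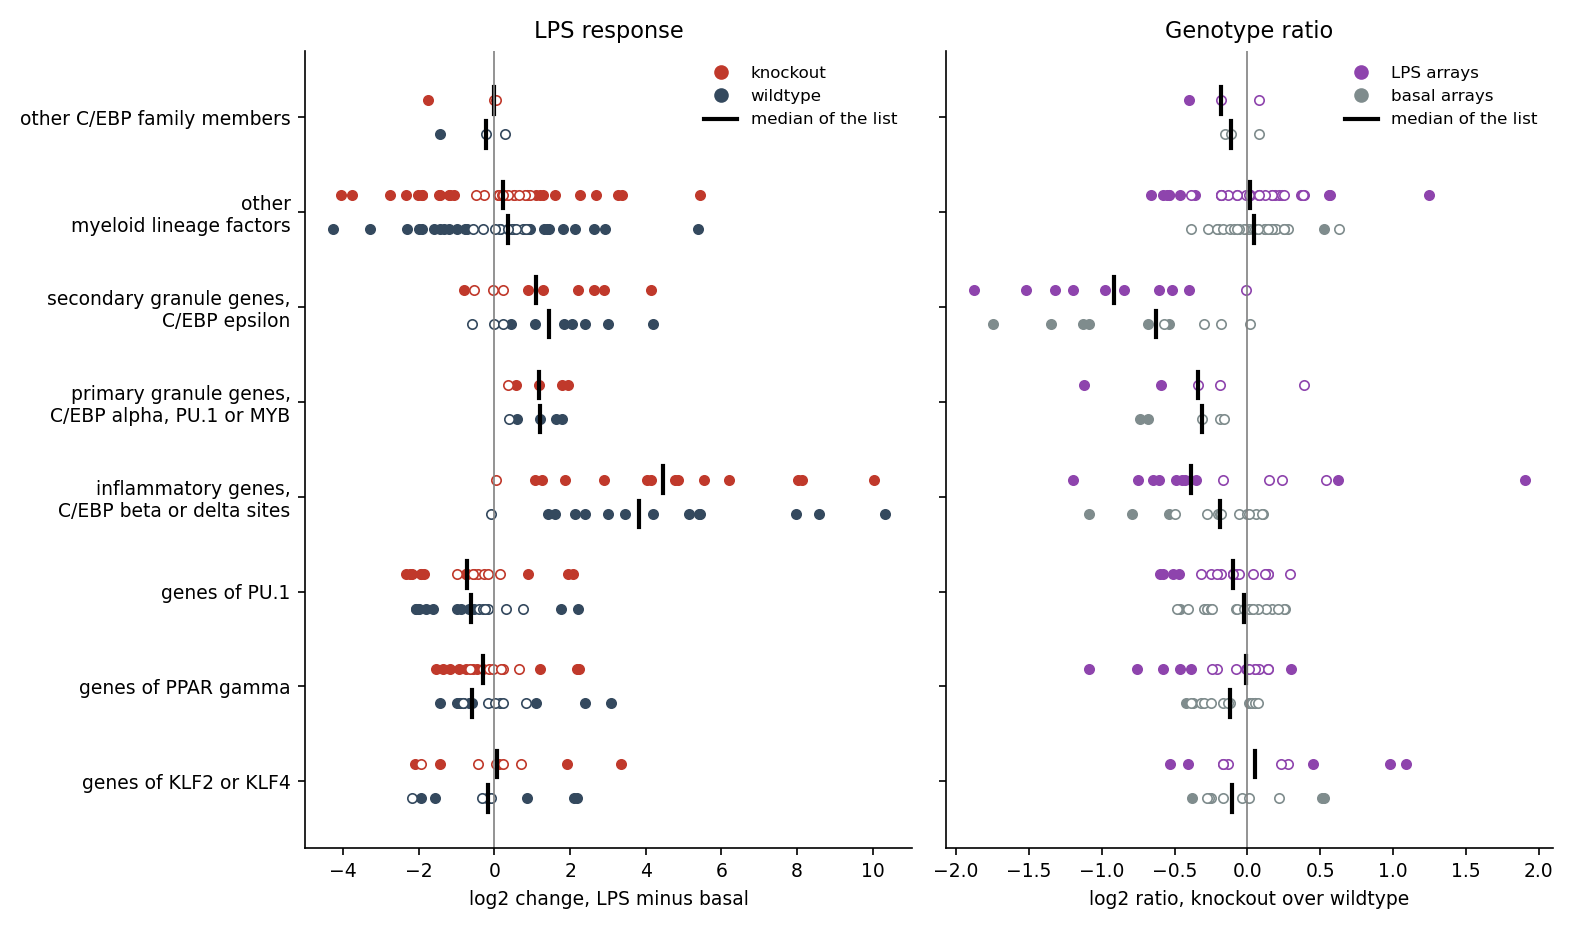
Log2 change of each gene of the 8 lists, as 1 point per gene (filled where the adjusted p passed) with a black bar at the list's median. The left panel gives LPS minus basal with knockout above wildtype in each row, and the right panel the ratio of knockout over wildtype with LPS above basal arrays. Inflammatory genes lie highest on the left, with medians of 4.45 and 3.82, and secondary granule genes lowest on the right, with medians of -0.92 and -0.63.

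The genes most like each factor were found by the root mean square difference between log2 levels centred on each gene's mean, over the 8 channels and 15999 genes with a symbol. For Cebpe the nearest was Pglyrp1, a peptidoglycan-binding protein of neutrophil granules, with a difference of 0.129 where Cebpe itself varied by 0.745 about its mean. Pglyrp1 changed by 1.03 and 1.29 with LPS in knockout and wildtype cells, and its genotype ratio was -0.79 under LPS and -0.53 at rest. Klf2 was nearest to Ctsd, the lysosomal protease cathepsin D, at 0.131, and then to Lpl, at 0.166. Ctsd had genotype ratios of -0.83 under LPS and -0.40 at rest.

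Pparg had Cerk, ceramide kinase, at 0.135, whose changes with LPS were -3.51 and -3.55, and then Gnpda1, an amino sugar enzyme, at 0.19. Cebpa came closest to AU022793, at 0.197, and Tmem86a, at 0.207. For Gfi1, which varied by 2.57 about its mean, Ccnd2, cyclin D2, was at 0.309 and Fscn1, an actin bundling protein of mature dendritic cells, at 0.364. Ccnd2 rose like Gfi1, by 4.76 and 4.69, with a genotype ratio of 0.07 under LPS where Gfi1 had 0.75.

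The remaining factors varied less than Gfi1 about their means, Cebpb by 0.208, Cebpd by 0.262, Spi1 by 0.364 and Klf4 by 0.735. The differences are not scaled to this variation, so they do not rank the factors by nearness. Cebpb was nearest to Tdpoz8 (0.0803) and Rrbp1 (0.0811), Cebpd to Eif2s1 (0.0686) and Dnajb12 (0.0706), Spi1 to Nono (0.0614) and Dcaf7 (0.0689) and Klf4 to Uqcc3 (0.0948) and Ypel2 (0.099). Cebpe was followed by Plpp1, a lipid phosphatase, at 0.168. Among the 9 factors themselves, Cebpd and Spi1 had the smallest difference, 0.177, followed by Cebpb and Cebpd at 0.297 and Klf2 and Klf4 at 0.403. The difference between Cebpb and Cebpd is larger than the variation of either gene about its own mean. Cebpa and Pparg differed by 0.543 where they varied by 2.02 and 1.73.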

How the data were processed

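Gene expression was measured on 4 Agilent 2-colour arrays. The deposited scanner files hold the median intensity of each spot and its local background in both channels, with quality flags, made with Agilent Feature Extraction (9.3.2.1 in the submitters' processing notes, 11.5.1.1 per the file headers). The log10 ratios deposited in those files entered no test. A value table from the authors gives the log2 of knockout over wildtype signal. It matched the processed signals within 0.001 for 100% of probes with a single spot, after a constant of -0.002 to 0.0051 per array, with column medians of 0.016 to 0.0344. The origin of that constant is not stated.

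The arrays held 39429 probes on 1 slide, read in 1 scan, so no batch could be fitted. The arrays' number limits the precision. Between 62.1% and 65.0% of probe spots were well above background in Cy5 and 68.3% to 71.0% in Cy3, and none were saturated. Intensities were corrected with normexp (offset 50), ratios normalized by loess within arrays and levels by Aquantile across arrays, in limma 3.58.1 under R 4.3.3. Outlier spots were left out, and the 10 spots of a repeated probe (Pparg's among them) were averaged. Probes needed 1 channel well above background on 2 or more of 4 arrays. The brightest probe stood for a gene. Accessions of 27508 probes matched a symbol in a RefSeq table of GRCm38.p6, and the headers name another build, so coordinates are given for the promoters alone. LPS responses were fitted within a channel, genotype ratios over all 4 arrays, with eBayes and Benjamini-Hochberg adjustment over 23584 genes. The fits were tested on simulated data without dye, array or normalization effects, so that test does not cover those effects. A group with a probe not well above background on either array has only a bound, computed from the lowest signal well above background on each array or the probe's own signal, whichever is higher.

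The 9 genes and the lists were chosen with earlier results of these data known. Named from each list were the 2 largest rises and falls among the genes that passed, and for each factor the 2 genes nearest in profile. Genes named because they did not pass or had only a bound (Cebpg, Ddit3, Arg1, Csf3, Mmp9), and the markers Cd209a, Itgax and Fcgr1, were chosen after their values were seen. Il12b, Azu1, Cd68, Ly6g and Hbb-b1 were not matched to a probe and are not reported. Some genes that the naming rule picked are not reported here. Markers of dendritic cells (5 of 5) were well above background in all 4 groups. Of B cell markers 1 rose in each genotype with LPS and 0 differed between genotypes, and the same held for T cells, while the 1 tested erythroid marker had no call. Of 5 tested mast cell or basophil markers 2 were higher and 0 lower in knockout cells in each condition, and of 4 stromal markers 2 were lower under LPS and 0 at rest.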

Additional observations from a re-analysis of the deposited data

Results flagged for a closer look

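The difference between the knockout effects under LPS and at rest passed limma's test for the targeted gene, Cdk5r1, at -1.94 ± 0.133 (adjusted p = 0.00444). Its log2 ratio of knockout over wildtype was -2.55 and -2.29 on the LPS arrays and -0.37 and -0.59 on the basal arrays. Cdk5r1 rose with LPS in wildtype cells by 1.97 ± 0.215, while knockout cells gave 0.03 ± 0.292. Without either LPS array the difference no longer passed (adjusted p = 0.0624 and 0.0781), and with processed signals it was -2.11 (adjusted p = 0.0967).

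Il10, of the inflammatory list with C/EBPβ or C/EBPδ sites, also passed this test, at 1.90 ± 0.0931 (limma adjusted p = 0.00181). Its log2 ratio was 1.90 and 1.91 on the LPS arrays and 0.00 and 0.03 on the basal arrays. Without either LPS array, or with processed signals, 0 genes of this list passed the test. Its probe was not well above background in basal knockout cells and was so on 1 of 2 arrays in basal wildtype cells, so the basal ratio compares signals at or near background. With LPS it was at least 16.4-fold higher in knockout cells. None of the 9 factors met this criterion.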

How the results depend on the processing

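Over the 9 factors and Cdk5r1, 503 values kept direction and side of the threshold, 45 lost the call, 4 gained it and 18 changed sign. Scaling to the 75th percentile gave 14910 LPS calls in knockout (10723 higher, 4187 lower) and 15761 in wildtype cells (11552 and 4209), against 9855 (4496 and 5359) and 9845 (4322 and 5523). Median centring gave 4458 genotype calls at rest (3810 and 648) and 5483 under LPS (4625 and 858), against 1147 (795 and 352) and 2920 (1688 and 1232). It gave 227 calls for the difference, against 90, and 1 called factor at rest (Pparg) and 1 in the difference (Gfi1). Processed signals gave 1729 calls under LPS and 6 for the difference, split 5 and 1, and the values of the authors gave 1745 and 8, with 2 called factors under LPS for each. Requiring both channels above background on all arrays gave 704 calls at rest and 19 for the difference. Leaving out 1 array at a time gave 4075 to 9531 LPS calls in knockout and 5282 to 8828 in wildtype cells, 709 to 754 genotype calls at rest, 391 to 3149 under LPS and 4 to 198 for the difference. Called factors then numbered 6 to 8 and 5 to 6 with LPS in knockout and wildtype cells, and 0 to 4 for the genotypes under LPS. They numbered 0 at rest and 0 in the difference.

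Sign changes concerned values with no call, except that Cebpb passed with 75th percentile scaling. Median centring turned the genotype ratio at rest for Cebpb (0.163), Cebpd (0.127), Spi1 (0.069) and Klf4 (0.081), the ratio under LPS for Cebpd (0.132) and Pparg (0.09), and the difference for Cebpd (0.005). Scaling to the 75th percentile turned the LPS change of Cebpb in knockout cells (0.501). Leaving out 1 array gave LPS changes from -0.294 to 0.052 for Cebpb and -0.388 to 0.442 for Cdk5r1 in knockout cells, and -0.044 to 0.249 for Cebpb in wildtype cells, where it was -0.022 without basal replicate 2. It gave genotype ratios at rest from -0.235 to 0.066 for Spi1 and -0.315 to 0.023 for Klf4, and under LPS from -0.23 to 0.004 for Cebpa and -0.202 to 0.152 for Pparg. For the difference it gave -0.191 to 0.074 for Cebpd and -0.036 to 0.265 for Spi1. Apart from fewer samples, the cause was not tested.

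The replicate block gave 56 calls for the difference, against 90, and ended the Cebpd calls with LPS (adjusted p = 0.0656 in knockout and 0.0649 in wildtype cells). Across genes, the correlation between the deviations of same-numbered samples was -0.161 for ratios, -0.0831 for knockout levels and -0.19 for wildtype levels. The labels name no animals, and these correlations cannot show whether such samples share a donor or a culture.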
